A study of Arabidopsis thaliana and Arabidopsis lyrata subsp. lyrata with 12 samples.

Results

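The species difference after recovery from heat stress (HS) compares how the same gene moved in *Arabidopsis lyrata* and in *Arabidopsis thaliana*, 48 h after a 6 h stay at 37 °C. The members were one-to-one pairs of genes, chosen as every *A. lyrata* gene for which the deposited annotation names a single *A. thaliana* orthologue that no other *A. lyrata* gene names. Of 32793 annotated *A. lyrata* genes, 22051 formed such a pair with one of the 32678 *A. thaliana* genes counted. A filter on low counts left 17743 pairs for the test, and 4308 pairs had too few reads and were not tested. For each pair the log2 fold change of recovery over control was taken in each species, and the difference reported here is the *A. lyrata* value minus the *A. thaliana* value. A positive difference thus means that the transcript moved further up, or less far down, in *A. lyrata*.

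Of the 12 libraries of the series, 8 carry the comparison, with 2 libraries in each of 4 groups. The groups were recovered and control plants of *A. lyrata* MN47, and recovered and control plants of *A. thaliana* Col-0, both without any transgene or mutation named in the labels. Plants stood on soil for 3 weeks, at 21 °C during 16 h of light and at 16 °C during 8 h of dark, and leaves were sampled. Recovered plants were then held at 37 °C for 6 h and returned to the control conditions for 48 h. The 4 libraries made directly after HS entered the same fit and are given only as levels. Each species is represented by 1 accession, so that the species and the accession cannot be told apart. Control plants were collected directly after the stress of their sister plants, so recovered plants were 48 h older, and in both species the after-effect of HS cannot be told apart from 48 h of growth. The labels do not say whether the 2 libraries of a group came from separate plants. The p-values rest on the spread between replicate libraries, pooled over the 6 groups of the fit and moderated across genes. They thus do not measure the spread of any 1 group on its own.

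After HS, plants shut down the heat shock transcripts and take up growth and development again. Leaves make jasmonate, an oxidised fatty acid hormone, from plastid lipids, and its conjugate with isoleucine removes the JAZ repressors from the transcription factor MYC2. MYC2 in turn switches on JAZ genes and jasmonate synthesis genes, so that transcripts of the pathway tend to move together. Dividing leaf cells make a wave of mitotic transcripts that are driven by MYB3R factors through the MSA element of their promoters. Transcriptional gene silencing keeps transposable elements inactive through small RNAs and DNA methylation.

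Totals per library lay between 8246880 and 45254555 reads, of which 85.7 to 89.7% fell in the pairs. Levels are given as CPM, read counts scaled to the size of the library over the pairs, with TMM factors, and are compared only within a gene and a species. The *A. thaliana* control libraries stood apart from the rest. The SD of the log2 ratio between their 2 replicates was 0.479, against 0.164 to 0.217 in the other 5 groups. In control replicates 1 and 2, the 16 small heat shock proteins tested summed to 256.1 and 57.3 CPM and the 29 mitosis genes to 258.9 and 139.5 CPM. The 18 antenna proteins of the photosystems summed to 92440 and 112100 CPM in these libraries. Whether both control libraries were collected and handled alike is not given in the sources used here and was not tested. Leaf markers were abundant in all 8 libraries, with 21190 to 30080 CPM over 4 genes. Root markers summed to 24.8 to 35.4 CPM over 7 genes, nearly all of it from the 2 that were tested (24.8 to 35.3 CPM). PLT1, COBL9, EXPA7 and RHD6 had no read in *A. thaliana*, while all 7 had reads in *A. lyrata*. The stem cell gene WUS had no read in either species.

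The change differed between the species in 1668 pairs at an adjusted p under 0.05 (edgeR quasi-likelihood test of the interaction, Benjamini-Hochberg over 17743 pairs). In 1063 pairs, 5.99% of those tested, the difference was in favour of *A. lyrata*, and in 605 pairs, 3.41%, in favour of *A. thaliana*. Without adjustment, 2758 and 1868 pairs had a p under 0.05. Library totals in place of TMM turned the balance, with 653 positive and 1609 negative differences, as this scaling moved the median difference over all pairs to -0.12, against 0.04 with TMM. TMM computed within each species gave 877 and 824, and a filter of at least 10 reads in each of the 8 libraries gave 897 and 924. The balance between the directions thus depends on the scaling and filter, and results below are given for named genes and groups. The 2 libraries of a group gave 4 pairwise changes per species, and these did not overlap between the species in 7463 pairs, 42.1% of those tested. Among the called pairs they did not overlap in 1063 of 1063 and 604 of 605.

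Few pairs moved together in the 2 species. Across the 17743 pairs, Pearson's r between the 2 log2 fold changes was -0.048, given as a description since genes are not independent replicates. Within *A. lyrata*, 459 pairs (2.59%) were higher and 188 (1.06%) lower after recovery than in controls. Within *A. thaliana*, 952 pairs (5.37%) were higher and 1419 (8.00%) lower. With a weight for each group in limma voom, *A. lyrata* had 1571 higher and 1191 lower, and *A. thaliana* 486 and 738. Which species had more called pairs thus depended on the model, and the split that follows is that of edgeR. Of the 1063 positive differences, 551 belonged to pairs called lower in *A. thaliana* and not called in *A. lyrata*, 227 to pairs called higher in *A. lyrata* only, and 93 to pairs called in both species in opposite directions. The remainder were 189 pairs called in neither species and 3 called higher in both. Of the 605 negative differences, 422 belonged to pairs called higher in *A. thaliana* only, 64 to pairs called lower in *A. lyrata* only, and 15 to pairs called in opposite directions. A further 101 were called in neither species, 2 higher in both and 1 lower in both. The median log2 fold change of the pairs with a positive difference was 0.40 in *A. lyrata* and -0.50 in *A. thaliana*, and that of the pairs with a negative difference was -0.26 in *A. lyrata* and 0.65 in *A. thaliana*.

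**Figure D1:**
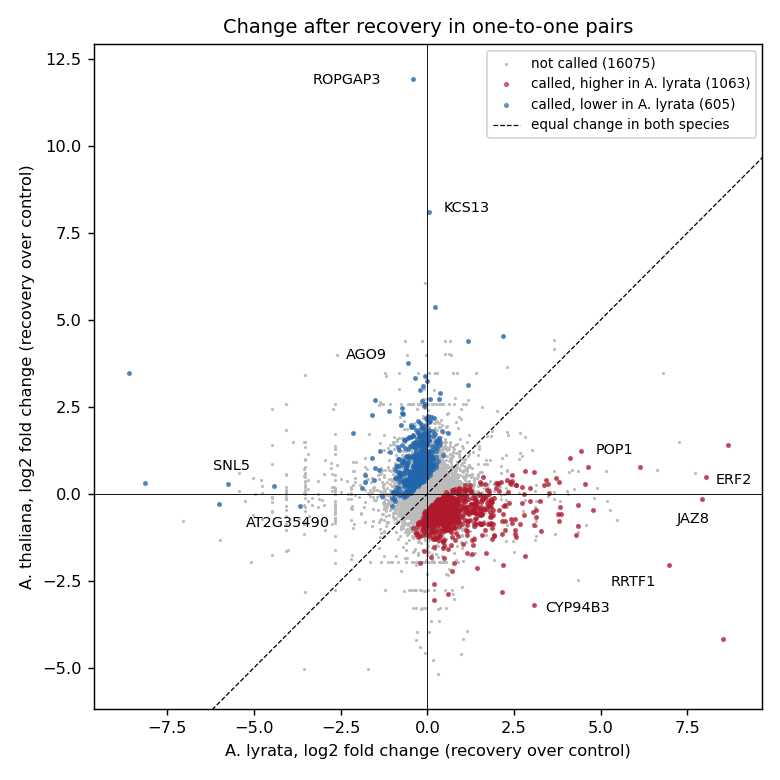
Each point is a one-to-one pair, with the log2 fold change of recovery over control in *A. lyrata* on the horizontal axis and in *A. thaliana* on the vertical axis. The 1063 called positive differences (red) stretch to the right of the dashed line of equal change and the 605 called negative ones (blue) lie above it, and most called pairs lie near one of the axes, with RRTF1, JAZ8 and ERF2 far to the right and ROPGAP3 and KCS13 at the top.

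Jasmonate genes were higher after recovery in *A. lyrata* and showed no joint change in *A. thaliana*. Of 28 jasmonate synthesis and signalling genes tested, 18 had a called positive difference and 1, VSP1, a negative one. Over all pairs, 5.99% were called positive and 3.41% negative. The median difference of the list was 1.76 on the log2 scale, against 0.04 over all pairs. Of the 22 members with at least 10 reads in each of the 8 libraries, 13 had a called positive difference. In *A. lyrata*, 18 of the 28 were higher than in controls and 0 lower (0 before adjustment at p under 0.05 and by DESeq2, 2 by limma voom), with a median log2 fold change of 1.71. In *A. thaliana*, 2 were higher and 5 lower, against 5.37% and 8.00% of all pairs. The median of the list there was -0.10. The number of called positive differences lay between 15 and 21 when any 1 of the 12 libraries was left out.

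JAZ8 (AT1G30135), a JAZ repressor, had the largest of these differences. It had 131 and 263 reads (13.4 and 13.1 CPM) in recovered *A. lyrata* plants, against 0 and 1 read in control plants. The ratio of recovery to control, scaled for library size, was 284, with a 95% counting interval of 50.8 to 11270, which covers counting error only. In *A. thaliana*, JAZ8 had 0.713 and 0.337 CPM in recovered plants and 0.714 and 0.503 CPM in control plants, which overlap. The difference was 8.08 ± 0.81 (SE, edgeR adjusted p = 6.8e-05). JAZ8 passed the filter on low counts only through recovered and HS *A. lyrata*, where it is high, so this p-value is no independent support. JAZ7 (AT2G34600) had 6.94 and 6.14 CPM in recovered and 0.225 and 0.472 CPM in control *A. lyrata*, with a difference of 3.09 ± 0.50. JAZ1 (AT1G19180) had 63.3 and 57.5 CPM in recovered and 13.6 and 12.2 CPM in control *A. lyrata*, while *A. thaliana* had 46.9 and 47.7 CPM in recovered and 58.5 and 58.9 CPM in control plants. Both *A. lyrata* recovery libraries were thus far above either control in JAZ1, and both *A. thaliana* recovery libraries lay below their controls (difference 2.54 ± 0.15, edgeR adjusted p = 3.8e-07). JAZ2, JAZ5, JAZ6 and JAZ9 also had called differences, between 1.77 and 1.99. JAZ3, JAZ10, JAZ11 and JAZ12 missed the threshold, with edgeR adjusted p from 0.051 to 0.14, although JAZ10 reached 54.0 and 52.0 CPM in recovered *A. lyrata*, against 8.99 and 8.11 CPM in control *A. lyrata*.

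LOX3 and LOX4, lipoxygenases that oxidise linolenic acid in the plastid, had differences of 3.04 ± 0.21 and 3.13 ± 0.22 (edgeR adjusted p = 2.7e-06 for both). LOX3 (AT1G17420) had 40.9 and 40.3 CPM in recovered and 3.93 and 3.62 CPM in control *A. lyrata*. In *A. thaliana* it had 28.8 and 26.1 CPM in recovered and 20.6 and 21.2 CPM in control plants. LOX2, another plastid lipoxygenase, had a difference of 0.19 ± 0.17 (edgeR adjusted p = 0.52), with overlapping libraries. AOS, the allene oxide synthase that follows, had 30.7 and 32.2 CPM in recovered and 23.3 and 21.4 CPM in control *A. lyrata*, and 179 and 172 CPM in recovered against 264 and 330 CPM in control *A. thaliana*. Its difference was 1.26 ± 0.18. It fell by 0.76 on the log2 scale in *A. thaliana*, and its change of 0.50 in *A. lyrata* was not called (edgeR adjusted p = 0.061). The cyclases AOC2 and AOC3, the reductase OPR3 and the ligase OPCL1 had differences of 1.29, 1.76, 2.57 and 1.65. OPR3 (AT2G06050) had 188 and 187 CPM in recovered and 38.1 and 43.4 CPM in control *A. lyrata*, against 63.0 and 67.4 CPM in recovered and 98.0 and 70.8 CPM in control *A. thaliana*.

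MYC2 (AT1G32640), the transcription factor at the head of the pathway, had 120 and 135 CPM in recovered and 36.7 and 39.6 CPM in control *A. lyrata*. In *A. thaliana* it had 80.3 and 78.0 CPM in recovered and 101 and 99.9 CPM in control plants. The species moved in opposite directions, and both changes were called, with a difference of 2.09 ± 0.15 (edgeR adjusted p = 2.7e-06). COI1, the receptor, and JAR1, which makes the active conjugate, had differences of -0.03 ± 0.18 and -0.20 ± 0.20 with overlapping libraries. CYP94C1, which oxidises the conjugate, had 37 and 80 reads in recovered and 1 and 0 reads in control *A. lyrata*, a ratio of 84.5 with a counting interval of 14.9 to 3366. CYP94B3, of the same pathway, had a difference of 6.28 ± 1.67 (edgeR adjusted p = 0.033) on few reads, with 8 and 30 in recovered and 0 and 3 in control *A. lyrata*, against 2 and 0 in recovered and 25 and 6 in control *A. thaliana*. It was called in 2 of the 12 fits that left out a library. JMT, the jasmonate methyltransferase, had a difference of 2.22 ± 0.51.

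VSP1, a vegetative storage protein that jasmonate induces, was the member with a called negative difference. It had 2082 and 2045 CPM in recovered and 3508 and 3533 CPM in control *A. lyrata*, against 92.7 and 99.7 CPM in recovered and 44.7 and 6.20 CPM in control *A. thaliana*. The difference was -2.74 ± 0.71 (edgeR adjusted p = 0.03). Leaving out *A. thaliana* control replicate 1 made it -4.71, leaving out replicate 2 made it -1.89, and it was called in 2 of the 12 fits that left out a library. After HS itself, *A. lyrata* had 16280 and 14420 CPM of VSP1. Other jasmonate genes were also above control after HS in *A. lyrata*, with 325 and 347 CPM of MYC2, 371 and 395 CPM of OPR3 and 10.3 and 8.92 CPM of JAZ8 in the HS libraries. In the *A. thaliana* HS libraries, MYC2 had 34.1 and 38.7 CPM and OPR3 14.8 and 17.3 CPM. VSP1 and VSP2, and AOC2 and AOC3, are neighbouring copies, and as the handling of reads that map to several places is not given for genes, their counts are uncertain.

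**Figure D2:**
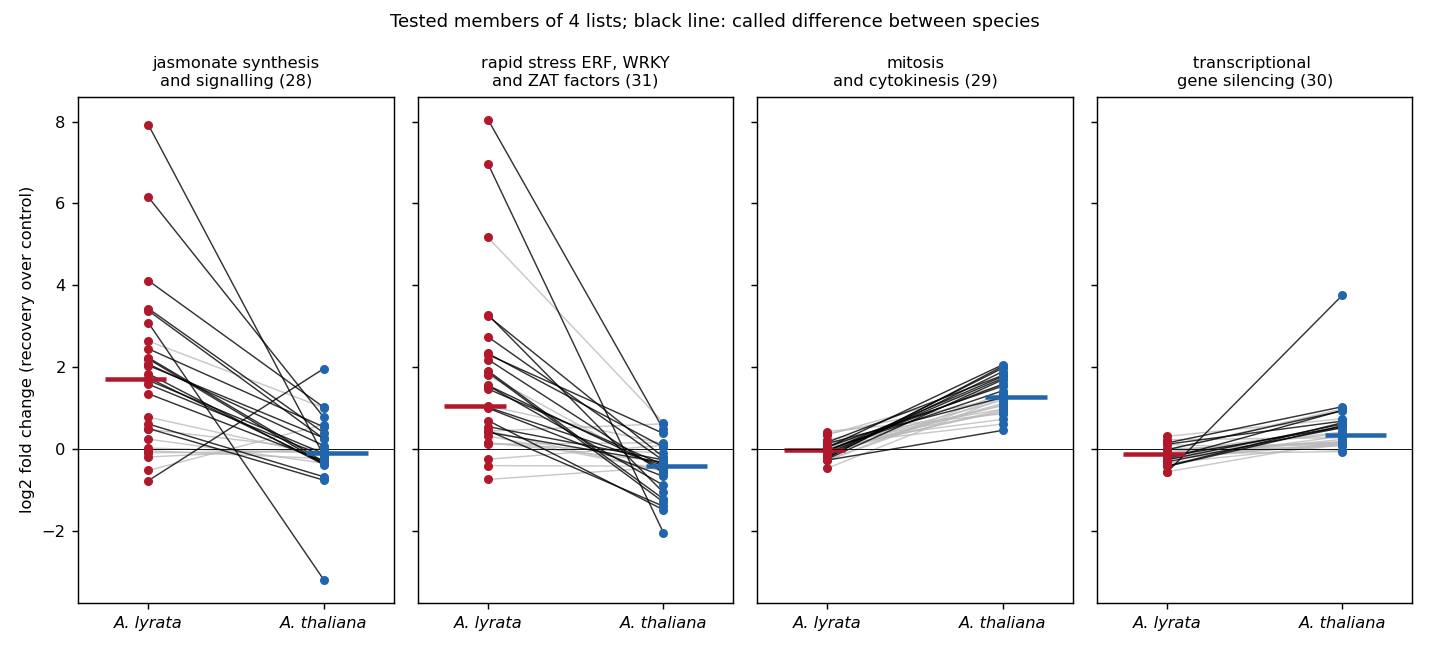
Log2 fold change of recovery over control (vertical axis) of every tested member of 4 lists, with *A. lyrata* left and *A. thaliana* right; a line joins the 2 values of a pair, black where the species difference was called, and thick bars are medians. Lines run down to the right in the jasmonate and rapid stress lists, with medians of 1.71 and 1.05 in *A. lyrata* against -0.10 and -0.41 in *A. thaliana*, and up to the right in the mitosis and gene silencing lists, with medians of -0.02 and -0.12 against 1.26 and 0.35.

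Rapid stress genes, mostly ERF, WRKY and ZAT transcription factors with a few RNA-decay and calmodulin-like genes, showed the same pattern in *A. lyrata*, and a downward change in part of *A. thaliana*. Of 31 tested, 19 had a called positive difference and 0 a negative one (0 also before adjustment and by DESeq2 and voom). The shares over all pairs were 5.99% and 3.41%. The median difference of the list was 1.85. The count of positive ones was 14 to 23 with 1 library left out, and 9 of the 18 members that had at least 10 reads in each of the 8 libraries. In *A. lyrata*, 15 were higher and 0 lower (2 before adjustment, 0 by DESeq2 and 1 by voom), against 2.59% and 1.06% of all pairs. In *A. thaliana*, 0 were higher (2 before adjustment, 0 by DESeq2 and voom) and 10 were lower (6 by DESeq2 and 5 by voom). Over all pairs, edgeR called 5.37% higher and 8.00% lower in *A. thaliana*. RRTF1 (AT4G34410), an ethylene response factor (ERF) that responds to reactive oxygen, had the largest positive difference of the named pairs. It had 176 and 378 reads (18.0 and 18.9 CPM) in recovered *A. lyrata* and 1 and 2 reads in controls, a ratio of 133 with a counting interval of 45.4 to 649. In *A. thaliana* it had 0.535 and 0.927 CPM in recovered and 5.36 and 1.32 CPM in control plants, and both recovery libraries lay below both controls. Its difference was 9.01 ± 0.97 (edgeR adjusted p = 0.00011). In the HS libraries of *A. lyrata*, RRTF1 had 1.01 and 1.53 CPM, far below its level 48 h later.

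ERF2 (AT5G47220) had 22 and 46 reads in recovered *A. lyrata* and none in controls, so that it was at least 16.4-fold higher, taking 3 reads over the group as the floor. In *A. thaliana* it had 12.8 and 14.1 CPM in recovered and 10.1 and 9.18 CPM in control plants (difference 7.56 ± 0.91, edgeR adjusted p = 0.00042). WRKY40 (AT1G80840), a repressor of defence genes, had 12.5 and 13.8 CPM in recovered and 1.01 and 1.65 CPM in control *A. lyrata*, against 28.6 and 27.6 CPM in recovered and 38.8 and 26.2 CPM in control *A. thaliana* (difference 3.45 ± 0.33). Its partner WRKY18 had a difference of 2.29 ± 0.16. CAF1A and CAF1B, deadenylases that start mRNA decay, moved in opposite directions with both changes called. CAF1A (AT3G44260) had 10.2 and 10.1 CPM in recovered and 5.96 and 6.53 CPM in control *A. lyrata*, against 34.4 and 35.6 CPM in recovered and 103 and 92.9 CPM in control *A. thaliana* (difference 2.18 ± 0.17, edgeR adjusted p = 5.5e-06). ERF4, ERF11, ERF13, ZAT10 and WRKY48 had differences between 1.43 and 4.34. WRKY33, WRKY11 and WRKY53, also rapid stress factors, had differences of -0.04, 0.01 and -0.34, none of them called. ERF5, ERF6 and ZAT12 were called on levels of at most 2.86 CPM in recovered and control *A. lyrata*, and ERF6 in 4 of the 12 fits that left out a library.

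The promoters of JAZ8 and ERF2 are shown because they hold a G-box (CACGTG), the element that MYC2 and related factors bind. Each sequence is the 250 bases before the RefSeq gene start of *A. thaliana* on TAIR10.1, 5′ to 3′ on the strand of the gene, and capitals mark matches on either strand to the G-box, the W-box core TTGACC, the GCC-box GCCGCC or the MSA core AACGG. JAZ8 lies at chr1:10596102-10596351 (plus strand) and ERF2 at chr5:19172957-19173206 (minus strand). Each holds 1 G-box and 1 W-box core.

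JAZ8: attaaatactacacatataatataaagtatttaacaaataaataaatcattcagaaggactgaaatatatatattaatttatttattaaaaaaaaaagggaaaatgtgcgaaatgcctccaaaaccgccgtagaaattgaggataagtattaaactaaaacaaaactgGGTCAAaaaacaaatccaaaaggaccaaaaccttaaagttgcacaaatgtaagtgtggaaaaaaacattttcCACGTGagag

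ERF2: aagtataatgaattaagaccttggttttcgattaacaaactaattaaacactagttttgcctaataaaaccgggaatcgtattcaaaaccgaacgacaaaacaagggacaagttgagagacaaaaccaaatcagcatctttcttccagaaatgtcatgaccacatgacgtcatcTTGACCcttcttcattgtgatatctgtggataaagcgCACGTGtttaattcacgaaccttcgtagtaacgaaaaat

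A G-box was found in 5 of 28 promoters of the jasmonate list (17.9%) and in 5 of 31 of the rapid stress list (16.1%), against 7.71% of the 17711 promoters of tested pairs that could be read. In the 1062 promoters of pairs with a called positive difference the share was 9.13%. The GCC-box, an ERF target, was in 5 of 31 promoters of the rapid stress list (16.1%), against 1.88% of all, and in none of the jasmonate list. A match says that the letters are there and not that a factor binds. The promoters of *A. lyrata* were not analysed here.

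Of 23 glucosinolate genes tested, 8 had a called positive and 1 a called negative difference, against 5.99% and 3.41% of all pairs. The median of the list was 0.51. Leaving out *A. thaliana* control replicate 1 gave 16 called positive differences and a median of 0.65, leaving out control replicate 2 gave 9 and a median of 0.18, and the lowest count was 6, without *A. thaliana* recovery replicate 2. Within *A. lyrata* 8 were higher and 1 lower, against 2.59% and 1.06% of all pairs. Within *A. thaliana* 0 were higher (1 before adjustment, by DESeq2 and by voom) and 2 lower, against 5.37% and 8.00%. CYP79B3 (AT2G22330) and CYP79B2, which turn tryptophan into indole acetaldoxime, had differences of 2.03 ± 0.21 and 1.67 ± 0.26. CYP79B3 had 16.2 and 18.6 CPM in recovered and 4.27 and 4.96 CPM in control *A. lyrata*, against 49.8 and 54.5 CPM in recovered and 59.3 and 54.2 CPM in control *A. thaliana*, where the libraries overlapped. The following steps, CYP83B1, SUR1, UGT74B1, SOT16 and SOT17, had differences between 0.67 and 1.14, each called higher in *A. lyrata* and not called in *A. thaliana*. IMD1, an isopropylmalate dehydrogenase, had 0.62 ± 0.14. The called negative difference was that of TGG1, a myrosinase that breaks glucosinolates down, with 76.1 and 76.8 CPM in recovered and 152 and 142 CPM in control *A. lyrata*, against 2836 and 2839 CPM in recovered and 1525 and 2613 CPM in control *A. thaliana* (difference -1.40 ± 0.27, edgeR adjusted p = 0.0075).

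Of the 11 cold-response genes tested, 3 were called in favour of *A. lyrata* and 1 in favour of *A. thaliana*. The shares over all pairs were 5.99% and 3.41%. The dehydrins ERD10 and COR47 and the stress protein RD29A had differences of 1.62 ± 0.17, 1.02 ± 0.18 and 1.00 ± 0.18. ERD10 (AT1G20450) had 282 and 300 CPM in recovered and 138 and 133 CPM in control *A. lyrata*, against 123 and 136 CPM in recovered and 181 and 189 CPM in control *A. thaliana*. It thus rose in *A. lyrata* and fell in *A. thaliana*, both by the test. ICE1, an activator of the cold response, had a difference of -0.67 ± 0.15. Of 23 expansins and xyloglucan enzymes, which loosen cell walls, 6 had a called positive difference, against 5.99% of all pairs. That count was 2 without *A. thaliana* recovery replicate 1 or *A. lyrata* recovery replicate 2 and 9 without *A. thaliana* control replicate 1, the ends of its range. XTH18 (AT4G30280) was the largest, with 35.3 and 36.0 CPM in recovered and 7.75 and 6.14 CPM in control *A. lyrata*, against 1.87 and 1.77 CPM in recovered and 2.07 and 1.05 CPM in control *A. thaliana* (difference 2.05 ± 0.37). For EXPA3, EXPA5 and EXPA11 the called change within a species was a decrease in *A. thaliana*.

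Nitrate reductases went the other way. NIA1 (AT1G77760) had 136 and 144 CPM in recovered and 239 and 240 CPM in control *A. lyrata*, against 149 and 155 CPM in recovered and 73.3 and 96.6 CPM in control *A. thaliana*. It fell in *A. lyrata* and rose in *A. thaliana*, with a difference of -1.61 ± 0.18 (edgeR adjusted p = 0.00012). NIA2 had 366 and 382 CPM in recovered and 585 and 594 CPM in control *A. lyrata*, and a difference of -1.07 ± 0.21. Both were called in all 12 fits that left out a library. The other 3 tested genes of nitrate and ammonium assimilation were not called.

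Genes of mitosis and cytokinesis rose in recovered *A. thaliana* and did not pass the test in *A. lyrata*. All 29 tested differences were negative, with a median of -1.21, against 0.04 over all pairs. Of them, 13 were called, and 0 were called positive (0 also before adjustment and by DESeq2 and voom). Over all pairs, 3.41% were called negative and 5.99% positive. In *A. thaliana*, 22 of 29 were higher after recovery than in controls, with a median log2 fold change of 1.26. In *A. lyrata*, 0 were called in either direction (0 also before adjustment and by DESeq2 and voom), and the median was -0.02. Over all pairs, 2.59% were called higher and 1.06% lower in *A. lyrata*. The summed level of the 29 genes was 343.0 and 338.3 CPM in recovered and 347.0 and 341.3 CPM in control *A. lyrata*. In *A. thaliana* it was 478.9 and 494.6 CPM in recovered and 258.9 and 139.5 CPM in control plants. The *A. thaliana* controls were thus both below their recovered plants and far from each other. Leaving out control replicate 1 gave 28 called negative differences, and leaving out control replicate 2 gave 16. The lowest count was 7, without *A. lyrata* recovery replicate 2. Among markers of other tissues in *A. thaliana*, the 6 genes of the stomatal lineage, whose cells divide late in the leaf, summed to 41.3 and 42.1 CPM in recovered and 35.3 and 29.4 CPM in control plants, where *A. lyrata* had 62.2 and 59.1 CPM in recovered and 64.4 and 66.8 CPM in control plants. Flower and meristem markers summed to 15.3 and 13.1 CPM in recovered and 11.6 and 4.92 CPM in control *A. thaliana*, with WUS at 0. Their part in the result was not tested, and in bulk leaves more dividing cells and more RNA per dividing cell cannot be told apart.

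Kinesins of the phragmoplast, the scaffold that builds the new cell wall, led the list. POK2 (AT3G19050) had 17.7 and 18.5 CPM in recovered and 19.4 and 22.0 CPM in control *A. lyrata*, against 30.4 and 31.9 CPM in recovered and 8.93 and 7.94 CPM in control *A. thaliana*. The controls lay close to each other here, and the difference was -2.09 ± 0.19 (edgeR adjusted p = 3.6e-05). POK1 (AT3G17360) had 7.25 and 7.74 CPM in recovered and 8.32 and 9.21 CPM in control *A. lyrata*, against 18.8 and 19.6 CPM in recovered and 5.21 and 4.34 CPM in control *A. thaliana* (difference -2.25 ± 0.24). KINESIN-12A and KINESIN-12B, also of the phragmoplast, had differences of -2.02 ± 0.36 and -2.15 ± 0.40. HIK, a kinesin that drives the outward growth of the cell plate, ATK1, a spindle kinesin, and CSLD5, a cell wall synthase of the cell plate, had differences of -1.63, -1.83 and -1.83. MYB3R4 (AT5G11510), an activator of mitotic genes, had 12.6 and 12.0 CPM in recovered and 12.7 and 12.6 CPM in control *A. lyrata*, against 15.1 and 15.4 CPM in recovered and 6.28 and 4.14 CPM in control *A. thaliana*. Its difference was -1.63 ± 0.25, and that of MYB3R1 was -0.73 ± 0.18. Cyclins lay closer to the threshold. CYCB1;2 had a difference of -1.44 ± 0.41 (edgeR adjusted p = 0.04), called in 2 of the 12 fits that left out a library and moved to -2.14 or -0.88 without control replicate 1 or 2 of *A. thaliana*, while CYCB1;1, with -1.21 ± 0.39, was not called (edgeR adjusted p = 0.067).

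The promoters of 4 called members are shown because they hold several copies of the MSA core (AACGG), the centre of the element that MYB3R factors bind. They are the 250 bases before the RefSeq gene start on TAIR10.1, with capitals as above. CSLD5 lies at chr1:598658-598907 (minus strand) and holds 5 MSA cores, CYCB1;2 at chr5:1861704-1861953 (minus strand) with 4, KINESIN-12B at chr3:8518886-8519135 (plus strand) with 3 and also 2 G-boxes, and MAP65-3, which bundles microtubules of the phragmoplast, at chr5:20964538-20964787 (minus strand) with 2.

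CSLD5: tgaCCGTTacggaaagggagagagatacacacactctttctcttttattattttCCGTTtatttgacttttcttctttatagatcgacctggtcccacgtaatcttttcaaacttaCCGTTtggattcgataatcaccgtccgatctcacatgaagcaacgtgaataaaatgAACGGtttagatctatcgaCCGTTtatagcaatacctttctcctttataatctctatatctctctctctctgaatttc

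CYCB1;2: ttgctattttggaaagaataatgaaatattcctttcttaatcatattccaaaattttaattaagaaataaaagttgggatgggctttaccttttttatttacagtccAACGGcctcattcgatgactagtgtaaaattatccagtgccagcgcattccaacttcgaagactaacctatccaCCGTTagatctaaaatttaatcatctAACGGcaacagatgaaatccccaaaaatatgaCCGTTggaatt

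KINESIN-12B: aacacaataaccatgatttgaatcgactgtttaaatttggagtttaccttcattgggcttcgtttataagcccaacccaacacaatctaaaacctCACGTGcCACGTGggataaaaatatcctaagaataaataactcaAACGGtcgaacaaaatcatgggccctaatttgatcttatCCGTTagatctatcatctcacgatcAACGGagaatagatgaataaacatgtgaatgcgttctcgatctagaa

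MAP65-3: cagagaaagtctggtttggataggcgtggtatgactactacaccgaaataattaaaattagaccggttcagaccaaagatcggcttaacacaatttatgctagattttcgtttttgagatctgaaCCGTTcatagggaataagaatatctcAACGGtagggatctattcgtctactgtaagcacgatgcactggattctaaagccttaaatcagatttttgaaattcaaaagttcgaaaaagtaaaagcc

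The MSA core was found in 20 of the 29 promoters of the list (69.0%), and 12 (41.4%) held at least 2. Among all 17711 promoters of tested pairs the shares were 22.1% and 4.16%. Of the 13 called members, 10 held it. Promoters with at least 2 made up 7.11% of the 605 pairs with a negative difference and 3.30% of the 1062 with a positive one. The core is 5 letters long and occurs often, and POK1, the member with the largest difference, has none in this window.

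DNA replication genes had the same sign and smaller differences. All 19 tested were negative, with a median of -0.51, and 2 were called, against 3.41% of all pairs called negative. ICU2, the catalytic subunit of DNA polymerase alpha, had 41.6 and 43.8 CPM in recovered and 48.4 and 45.6 CPM in control *A. lyrata*, against 25.8 and 23.1 CPM in recovered and 15.1 and 18.0 CPM in control *A. thaliana* (difference -0.69 ± 0.18, edgeR adjusted p = 0.027). TSO2, a ribonucleotide reductase subunit, had a difference of -0.58 ± 0.17. Neither was called in every fit that left out a library, and the number of called members was 8 and 7 without *A. thaliana* control replicate 1 or 2 and 0 without any 1 of the other 6 control and recovery libraries. PCNA1 and PCNA2, the sliding clamps, had differences of -0.26 and -0.21 with overlapping libraries.

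Transcriptional gene silencing genes rose in part in recovered *A. thaliana*. Of 30 tested, 10 had a called negative and 0 a positive difference (0 also before adjustment and by DESeq2 and voom). The shares over all pairs were 3.41% and 5.99%. The median of the list was -0.49, against 0.04 over all pairs, and 29 of 30 were negative. In *A. thaliana*, 11 were higher after recovery by edgeR, against 5.37% of all pairs, 8 by DESeq2 and 4 by voom. There, 0 were lower (0 also before adjustment and by DESeq2 and voom), against 8.00% of all pairs by edgeR. In *A. lyrata*, 0 were called higher or lower by edgeR and DESeq2, while 5 were lower at an unadjusted p under 0.05 and 6 by voom. Over all pairs, edgeR called 2.59% higher and 1.06% lower in *A. lyrata*. AGO4 (AT2G27040), the Argonaute that guides small RNAs to DNA, had 80.7 and 81.3 CPM in recovered and 94.7 and 99.5 CPM in control *A. lyrata*, against 45.5 and 39.5 CPM in recovered and 27.3 and 28.4 CPM in control *A. thaliana*. The species did not overlap, and the difference was -0.87 ± 0.15 (edgeR adjusted p = 0.004). NRPE1, the largest subunit of RNA polymerase V, had 23.0 and 25.5 CPM in recovered and 32.1 and 32.7 CPM in control *A. lyrata*, against 14.2 and 14.5 CPM in recovered and 8.21 and 9.95 CPM in control *A. thaliana* (difference -1.06 ± 0.21). The change of *A. lyrata* alone was not called for either gene. Other genes of RNA-directed DNA methylation followed, with differences of -1.18 for RDR2, -0.84 for NRPD2 and -0.73 for DCL3. Among genes that maintain DNA methylation, VIM1, CMT3 and MET1 had differences of -0.95, -0.89 and -0.57. CMT3 (AT1G69770) had 46.8 and 43.2 CPM in recovered and 40.1 and 41.0 CPM in control *A. lyrata*, against 34.2 and 36.8 CPM in recovered and 19.3 and 15.7 CPM in control *A. thaliana*. AGO9 had the largest value of the list, -4.33 ± 1.06, on 11 and 7 reads in recovered and 0 and 2 reads in control *A. thaliana*, and -7.00 when *A. thaliana* control replicate 2 was left out. AGO9 was called in 6, and RDR2 in 8, of 10 alternative fits that kept all control and recovery libraries. With a weight for each group in limma voom neither was called (voom adjusted p = 0.12 for AGO9 and 0.059 for RDR2). DDM1, DRM2 and NRPD1 were not called, with -0.61 ± 0.29, -0.16 ± 0.22 and -0.05 ± 0.41. The count of called members lay between 3, without *A. lyrata* recovery replicate 2, and 15, without *A. thaliana* control replicate 2, when 1 library was left out.

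**Figure D3:**
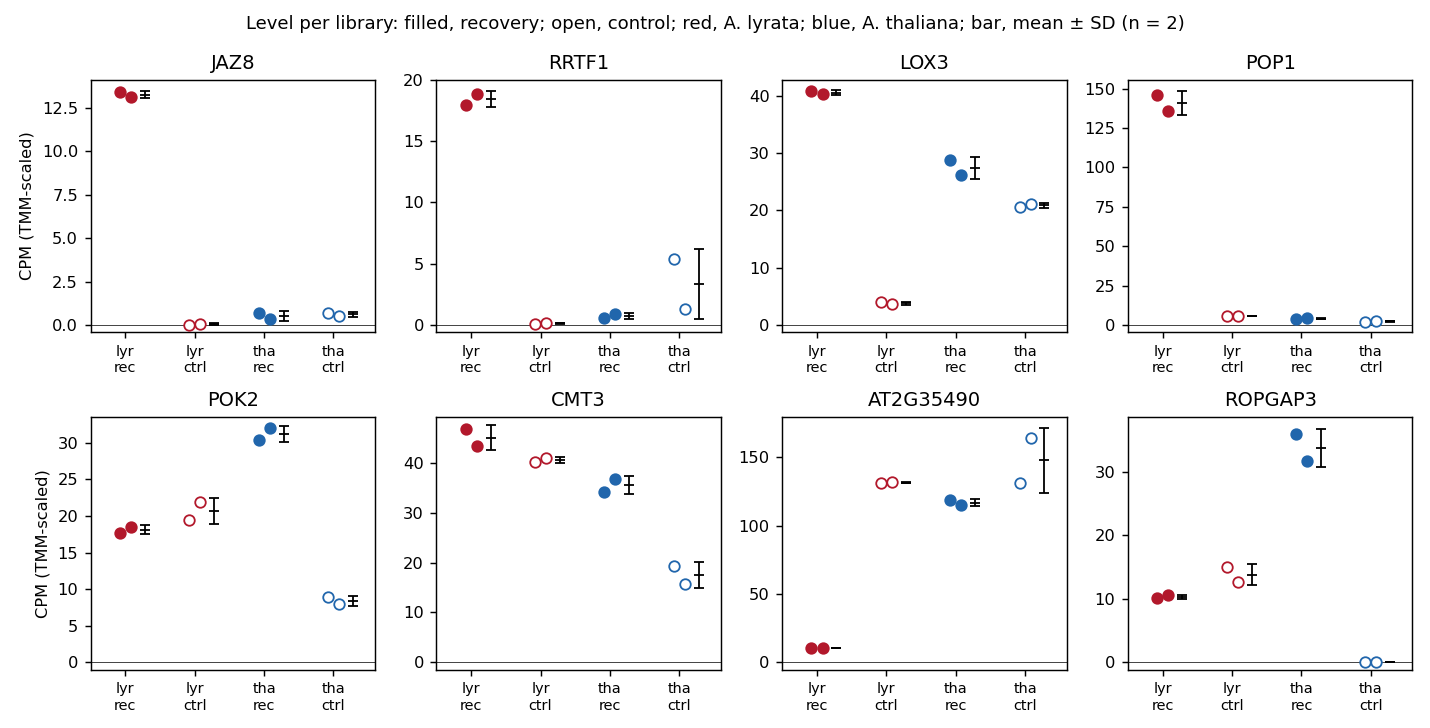
CPM (TMM-scaled, linear axis from 0) of 8 pairs in the 8 libraries: from left to right recovered (rec) and control (ctrl) *A. lyrata* (lyr, red), then recovered and control *A. thaliana* (tha, blue), with the mean ± SD of the 2 libraries as bars. JAZ8, RRTF1, LOX3 and POP1 are high in recovered *A. lyrata*, POK2, CMT3 and ROPGAP3 are low in control *A. thaliana*, and AT2G35490 is low in recovered *A. lyrata* alone.

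Heat shock genes gave few called differences, and the small heat shock proteins depended on which *A. thaliana* control was used. Over all tested pairs, 5.99% were called positive and 3.41% negative. Of 16 small heat shock proteins tested, 1 had a called difference, AT2G19310, with 26.6 and 28.9 CPM in recovered and 18.9 and 22.5 CPM in control *A. lyrata*, against 23.4 and 24.4 CPM in recovered and 47.4 and 35.1 CPM in control *A. thaliana* (difference 1.20 ± 0.24, edgeR adjusted p = 0.0082). The median of the list was 0.65, but -3.18 when *A. thaliana* control replicate 1 was left out, with 9 members called negative, and 1.55 when control replicate 2 was left out, with 10 called positive. AT4G10250, of the endoplasmic reticulum, had 8.37 and 11.5 CPM in recovered and 23.8 and 0.0387 CPM in control *A. thaliana*. HSP21, of the plastid, had 3.47 and 5.65 CPM in recovered and 18.3 and 0 CPM in control *A. thaliana*. In *A. lyrata*, the 16 genes summed to 325.7 and 347.9 CPM in recovered and 174.7 and 191.5 CPM in control plants. There, edgeR called 0 of them higher, against 2.59% of all pairs, DESeq2 1 and voom 6. No direction of the species difference is given for this list. Of 18 heat shock factors, HSFB2A, a repressor, was called, with 8.07 and 7.74 CPM in recovered and 3.71 and 2.91 CPM in control *A. lyrata*, against 7.31 and 8.26 CPM in recovered and 10.4 and 8.87 CPM in control *A. thaliana* (difference 1.57 ± 0.24, edgeR adjusted p = 0.0015). BZIP60 (AT1G42990), a transcription factor of the unfolded protein response, rose in *A. lyrata* and fell in *A. thaliana* (difference 1.35 ± 0.20) and was the only called member of 12 endoplasmic reticulum folding genes. Of 20 chaperones and of 12 other heat response markers, 1 each had a called negative difference, the mitochondrial mtHSC70-1 with -0.65 ± 0.15 and the immunophilin ROF1 with -0.63 ± 0.17. Within species, edgeR called 5 of the 20 chaperones higher in *A. thaliana* and 1 in *A. lyrata*, against 5.37% and 2.59% of all pairs. Voom with a weight per group called 3 and 8, beside 486 and 1571 of all pairs.

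Single pairs outside these lists had some of the largest differences. POP1 (AT2G47300), annotated as a ribonuclease P protein, had 146 and 136 CPM in recovered and 5.73 and 5.59 CPM in control *A. lyrata*, with 65.3 and 56.3 CPM directly after HS. In *A. thaliana* it had 3.83 and 4.21 CPM in recovered and 1.86 and 2.67 CPM in control plants, so that both species were higher and by very different amounts (difference 3.86 ± 0.27, edgeR adjusted p = 2.7e-06). ERD7 (AT2G17840), a dehydration and senescence protein, had 45.4 and 47.3 CPM in recovered and 10.0 and 9.60 CPM in control *A. lyrata*, against 54.1 and 50.6 CPM in recovered and 113 and 103 CPM in control *A. thaliana* (difference 3.29 ± 0.16). ORA47, an activator of jasmonate synthesis genes, had 0.817 and 1.90 CPM in recovered and 0.112 and 0.315 CPM in control *A. lyrata*, and 32.9 and 35.7 CPM in recovered against 75.3 and 51.3 CPM in control *A. thaliana* (difference 3.54 ± 0.64). AT2G27310, an F-box protein, and AT2G41650 and AT5G08760, both uncharacterized, had differences of 3.39, 3.46 and 3.79. AT3G28540, a P-loop hydrolase, had 4.36 ± 1.17 and was called in 2 of the 12 fits that left out a library. AT3G26460, a polyketide cyclase-like protein, had 3.23 ± 0.68 on few reads in *A. thaliana*, with 0 and 2 in recovered and 12 and 19 in control plants. Its change in *A. lyrata* was not called, with 11.2 and 12.6 CPM in recovered and 10.45 and 10.7 CPM in control plants.

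AT2G35490, a plastid lipid-associated protein, was far lower in recovered than in control *A. lyrata*. It had 10.2 and 10.4 CPM in recovered and 131 and 132 CPM in control *A. lyrata*, against 118 and 115 CPM in recovered and 131 and 164 CPM in control *A. thaliana*. The replicates were tight in *A. lyrata*, its level directly after HS was 77.2 and 81.1 CPM, and the difference was -3.33 ± 0.17 (edgeR adjusted p = 9.3e-08), called in every alternative run.

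A pair of neighbouring genes of *A. thaliana* had large negative differences and no read in either control. ROPGAP3 (AT2G46710), at chr2:19191935-19194849 in the deposited table, had 403 and 376 reads in recovered and 0 and 0 reads in control *A. thaliana*, at least 447-fold higher with 3 reads over the group as the floor. In *A. lyrata* it had 10.1 and 10.5 CPM in recovered and 14.9 and 12.7 CPM in control plants. KCS13 (AT2G46720), a 3-ketoacyl-CoA synthase of very long chain fatty acids, lies next to it at chr2:19197383-19200221 and had 30 and 25 reads in recovered and 0 and 0 reads in control *A. thaliana*, at least 31.6-fold higher. In *A. lyrata* it had 9.60 and 13.1 CPM in recovered and 9.44 and 12.7 CPM in control plants, which overlap. The fitted differences of -12.34 and -8.07 depend on how a count of 0 is treated and are no measure of size. Whether the control plants carried the same sequence at this place was not tested.

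Among the remaining negative differences, several were low in *A. thaliana* control replicate 2 in particular. PEL3 (AT5G23940), an acyltransferase of the cuticle, had 99.8 and 104 CPM in recovered and 98.7 and 104 CPM in control *A. lyrata*, against 44.9 and 45.2 CPM in recovered and 17.6 and 3.25 CPM in control *A. thaliana*. Its difference was -2.23 ± 0.56 (edgeR adjusted p = 0.024), and leaving out control replicate 1 or 2 made it -3.77 or -1.36. The cytochrome P450 CYP77B1 and the lipase AT5G33370 had differences of -2.62 ± 0.59 and -3.68 ± 0.55, and 2.93 and 0.348 CPM and 2.29 and 0.232 CPM in the *A. thaliana* controls. MBP2, a myrosinase-binding protein, had -2.39 ± 0.59 and 18.0 and 2.98 CPM in these controls. Leaving out control replicate 1 gave -4.53, -5.74 and -4.05 for CYP77B1, AT5G33370 and MBP2, and leaving out control replicate 2 gave -1.51, -2.51 and -1.49. NIT2, a nitrilase with near copies beside it, had 33.1 and 32.3 CPM in recovered and 5.28 and 13.4 CPM in control *A. thaliana* (difference -3.91 ± 0.74). In *A. lyrata* it had 4 and 11 reads in recovered and 9 and 41 reads in control plants, a log2 change of -2.16 that was not called. AT2G04050, a MATE transporter, had -2.53 ± 0.36, or -3.87 when control replicate 2 was left out. SNL5, a SIN3-like corepressor, had no read in recovered *A. lyrata* and 1 and 9 reads in controls, at least 4.62-fold lower. NPY4, CYP705A20 and THA1 were named on at most 0.843 CPM in recovered and control *A. thaliana* and rest on few reads there, and THA1 and CYP705A20 were called in 1 and 3 of the 12 fits that left out a library. GL3, a regulator of hair cells and flavonoids, had -3.22 ± 0.78 on at most 0.98 CPM in *A. thaliana*, and -6.94 or -1.83 when control replicate 1 or 2 was left out.

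Pairs in which both species passed the test in opposite directions numbered 93 upward in *A. lyrata* and 15 downward. By the size of the 2 changes, the first 5 upward were RRTF1, AT1G11210, AT1G65500, FAMT and ERF13, and the first 5 downward were AT3G28270, AT2G19090, NIA1, BT2 and ATCSLC08. FAMT (AT3G44860), a farnesoic acid methyltransferase, had 1.84 and 1.25 CPM in recovered and 0.112 and 0.0787 CPM in control *A. lyrata*, against 35.4 and 35.2 CPM in recovered and 57.6 and 47.9 CPM in control *A. thaliana* (difference 4.43 ± 0.63). AT1G11210 and AT1G65500, of unknown function, had differences of 5.28 and 4.60, also on low levels in *A. lyrata*. BT2 (AT3G48360), a scaffold protein that responds to nitrate and sugar, had 501 and 495 CPM in recovered and 829 and 759 CPM in control *A. lyrata*, against 125 and 130 CPM in recovered and 76.7 and 60.4 CPM in control *A. thaliana* (difference -1.58 ± 0.16, edgeR adjusted p = 9.3e-05). AT3G28270 had 170 and 165 CPM in recovered and 259 and 222 CPM in control *A. lyrata*, against 6.33 and 8.01 CPM in recovered and 1.93 and 2.56 CPM in control *A. thaliana*. AT2G19090 and ATCSLC08, a glycosyl transferase, had differences of -1.86 and -1.48. All 5 downward pairs were called in each of the 12 fits that left out a library.

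The remaining lists had few called members, beside 5.99% of all tested pairs called positive and 3.41% called negative. Their counts are given as values and not as a result for the list. In the circadian clock list, 3 of 25 were called, TOC1 with 0.89 ± 0.19, PRR3 with 0.76 ± 0.18 and COL2 with -1.06 ± 0.16. TOC1 had 26.1 and 25.8 CPM in recovered and 14.0 and 13.9 CPM in control *A. lyrata*. The hour of collection of the recovered plants relative to the controls is not given beyond the 48 h. Salicylic acid and camalexin defence had 1 of 17 called, PR5, with 2.69 ± 0.77 on at most 2.95 CPM in recovered and control *A. lyrata*, and with 26.6 and 28.5 CPM in recovered against 28.8 and 71.5 CPM in control *A. thaliana*. PR5 was called in 2 of the 12 fits that left out a library. Abscisic acid had 2 of 23, RD22 and PYL6, with 0.92 and 1.09. Of 12 aquaporins, 4 were called, PIP2;6 and PIP1;2 with 0.79 and 0.65, and PIP2;8 and PIP2;5 with -1.03 and -0.92. Flavonoid genes had 3 of 25 called negative, GL3, MYBL2 and C4H. Single members were called among auxin genes (IAA3, 0.61), antenna proteins (LHCA6, 0.58), senescence genes (the factor NAP, -1.65) and the stomatal lineage (the receptor TMM, -1.19). Among 2 Rubisco genes 0 were called by edgeR, with 1 before adjustment and by DESeq2 and voom (RBCS1B, edgeR adjusted p = 0.13). Among 8 floral and meristem markers 0 were called, with 2 before adjustment and 0 by DESeq2 and voom, and the smallest edgeR adjusted p was 0.11 for AT5G15800. Among 2 root markers 0 were called by any of these (SHR, edgeR adjusted p = 0.20).

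Of the 82 named pairs, 79 were called, 39 of them in each of 10 alternatives that kept all control and recovery libraries, 43 in each of the 12 fits that left out a library, and 28 in all of these. Of the 1668 called pairs, 747 were called in each of the 10 alternatives, 470 positive and 277 negative, and 371 were called when libraries left out in turn were added. Leaving out *A. thaliana* control replicate 1 gave 2633 positive and 1513 negative calls, and leaving out control replicate 2 gave 2913 and 2431, since the spread between these libraries then no longer entered the fit. Calls shared with these fits are therefore no check on the calls reported. The 12 fits also include those without an HS library, which lies outside the contrast. A weight for each group in limma voom, chosen after the spread of the *A. thaliana* controls had been seen, gave 1220 and 695 calls and shared 1452 with those reported. With it, *A. lyrata* had 1571 pairs higher and 1191 lower after recovery, and *A. thaliana* 486 and 738.

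**Figure D4:**
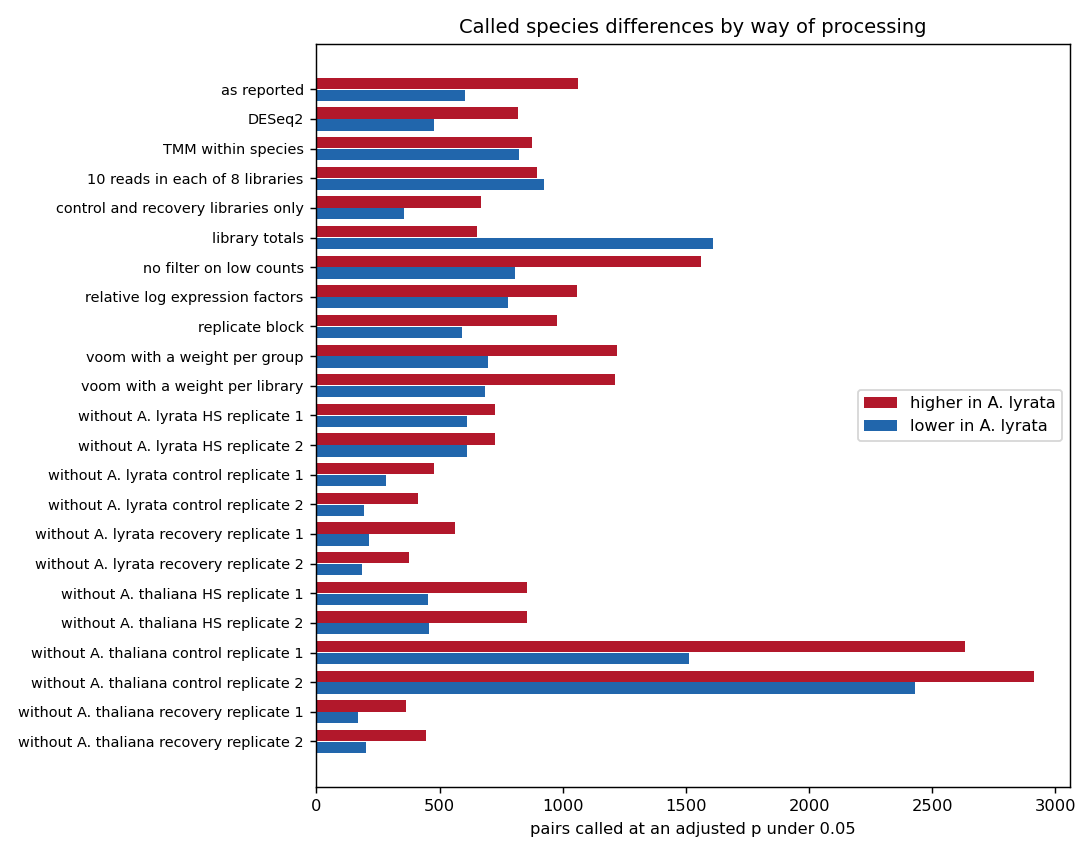
Number of pairs called at an adjusted p under 0.05 (horizontal axis, from 0), with positive differences in red above negative ones in blue, as reported and under each alternative (rows). The bars are longest without either *A. thaliana* control library, at 2633 and 2913 positive calls, shortest without *A. thaliana* recovery replicate 1, at 362 and 170, and blue exceeds red with library totals and with at least 10 reads in each of the 8 libraries.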

How the data were processed

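Leaf RNA was sequenced as 100 bp single reads, without strand, from 2 libraries per condition and species. By their methods, the authors trimmed the reads (FASTX), aligned them with tophat2 at default settings against TAIR10 for *A. thaliana* and the first *A. lyrata* assembly, and used Qualimap for counting. The deposited counts per gene are raw and were used unchanged, and 12 RPKM columns were not used. Genes that overlap on both strands share reads.

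Counts were joined by pair and fitted in R 4.3.3 with edgeR 4.0.16 (TMM, filterByExpr with a minimum count of 10 and a total of 15, quasi-likelihood, a mean for each of 6 groups of 12 libraries, 6 residual degrees of freedom). Biological variation between replicates was 0.104 as a common coefficient. The SE is the size of the log2 value divided by the square root of F. For a single gene, an exact two-sided permutation test of 2 against 2 libraries reaches 0.333 at best. Alternatives used DESeq2 1.42.0, limma 3.58.1 and other scalings, filters and samples. Correlations of replicate differences between groups lay between -0.055 and 0.161. They showed no strong pairing of libraries by replicate number, but cannot tell whether equal numbers shared a batch.

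The members and the 26 lists (495 genes, 464 of them in a pair) were chosen with earlier results of these data known. Named were the 15 largest called differences in each direction with a mean of at least 10 CPM in a group and no overlap, up to 3 called members per list and direction (the smallest p where none was called), and in each direction the 5 called pairs with the largest summed size among those called in opposite directions in the species, 82 pairs in all. Other list members were given after their values had been seen. Symbols and promoters come from RefSeq (TAIR10.1). Intervals and floors cover counting error only.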

Additional observations from a re-analysis of the deposited data

Results flagged for a closer look

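The species difference is itself a test between groups under the same contrast, so each called pair differs between the species by that test. The counts were 1063 pairs in favour of *A. lyrata* and 605 in favour of *A. thaliana*. Several named pairs were in addition called in both species in opposite directions, ERD7, ERD10 and BZIP60 among them. Those flagged here are the 5 in each direction with the largest summed size. Their differences of the log2 fold changes, *A. lyrata* minus *A. thaliana*, were 9.01 for RRTF1, 5.28 for AT1G11210, 4.60 for AT1G65500, 4.43 for FAMT and 4.34 for ERF13, and -2.15 for AT3G28270, -1.86 for AT2G19090, -1.61 for NIA1, -1.58 for BT2 and -1.48 for ATCSLC08.

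In the HS libraries, which the contrast of recovery with control does not use, ROPGAP3 averaged 6.71 CPM and KCS13 4.75 CPM in *A. thaliana* directly after HS, against 0 reads of either gene in the *A. thaliana* controls. The HS libraries held 42 and 162 reads of ROPGAP3 and 22 and 148 reads of KCS13.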

How the results depend on the processing

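Calls are given as positive and negative differences, against 1063 and 605 as reported. Library totals gave 653 and 1609, the 8 control and recovery libraries alone 669 and 355, and at least 10 reads in each of these 924 negative. DESeq2 gave 817 and 479 and shared 1182 of the calls. With 1 library left out the counts lay between 362 and 2913 and between 170 and 2431. A group left with 1 library was assumed to vary like the others. Within *A. lyrata* (459 higher and 188 lower as reported) these ranges were 169 to 1576 and 31 to 1110. Voom with a weight per library gave 1571 and 1193, voom with a weight per group 1571 and 1191, no filter 313 lower, and the 8 libraries 97 lower. Within *A. thaliana* (952 and 1419) they were 222 to 2558 and 174 to 3195. Library totals gave 2323 and 588, voom per library 465 and 717, voom per group 486 and 738, and the 8 libraries 924 lower. Over all lists, 66 positive and 40 negative calls became 62 negative with library totals, with ranges of 44 to 116 and 17 to 92 when a library was left out. The replicate number as a block gave 975 and 591 calls, and whether equal numbers shared a batch is not known. A single call, 1 of 1668, had the opposite sign in 1 fit, without *A. lyrata* control replicate 2 (AT5G37400, with 0 and 22.4 CPM in the *A. lyrata* controls), and no other called difference changed sign under any alternative. Depth limits pairs with few reads, such as JAZ8, ERF2 and RRTF1 in control *A. lyrata*, for which the size is known only within its counting interval or as a bound.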

Other observations

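Counts of 0 in both control libraries with at least 50 reads over the recovered plants were found for 4 tested pairs in *A. lyrata*, DDF1, AT3G22275, ERF2 and CYP94B1, and for 2 in *A. thaliana*, ROPGAP3 and KCS13. They were chosen after their values were seen. DDF1 (AT1G12610), a transcription factor of the CBF family, had 34 and 59 reads in recovered *A. lyrata*, at least 22.4-fold higher, while *A. thaliana* had 0 and 1 reads in recovered and 30 and 2 reads in control plants. CYP94B1, which oxidises the jasmonate conjugate like CYP94B3, had 27 and 82 reads in recovered *A. lyrata*, at least 26.2-fold higher, and AT3G22275, a JAZ-like protein, had 20 and 33 reads, at least 12.8-fold higher (edgeR adjusted p of the species difference 0.046 and 0.05, the last just above the threshold). The reverse, reads in controls and none in recovered plants, was found for 1 pair in *A. lyrata*, AT2G34700, an extensin-like protein with 36 and 36 reads in controls, and for 0 in *A. thaliana*.

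The 2 *A. thaliana* genes without control reads are adjacent on chromosome 2, and the genes on either side had reads in the controls. AT2G46700, before them, had 101 and 121 reads in recovered and 121 and 240 reads in control plants, and AT2G46735, after them, had 73 and 74 in recovered and 146 and 253 in control plants.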
